A study of Drosophila melanogaster with 12 samples.

Results

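The fat body was compared between *dERR* mutant and control larvae of *Drosophila melanogaster*. The 6 fat body samples, of 12 in the series, were chosen by their labels: mutants 1, 2 and 4 and controls 5, 6 and 7, n = 3 in each group. The mutants carried *ERR1* over *ERR2*. The controls carried *ERR1* over a wild-type chromosome, so that they were heterozygous and also had 1 mutant allele. All larvae were in the middle of the second instar and, by the labels, had been raised for 60 h at 25 °C on molasses agar with yeast. The remaining samples, 3 whole mutant and 3 whole control larval samples, are used only to show where the fat body differs. Each sample was RNA of several larvae, and the study's methods call the fat body sets technical replicates. The p-values thus rest on a spread between sets that may be technical, and those printed pool fat bodies with whole larvae.

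ERR, the only fly member of the estrogen-related receptor family, is an orphan nuclear receptor that activates genes of carbohydrate breakdown in larvae. The larval fat body stores triglyceride and glycogen, detoxifies, secretes most proteins of the haemolymph and releases signals that tie growth to nutrition, as liver and adipose tissue do together in vertebrates. The glycolytic and beta-oxidation genes are left aside here and the other functions described.

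All values are regularized log2 expression (rlog, which shrinks genes with few reads towards their mean), so that a difference of 1 is a 2-fold difference, and low genes are understated. They allow a gene to be compared between samples but not with other genes. Per-sample values are given in the order mutants 1, 2 and 4, then controls 5, 6 and 7. A gene was tested where its fat body mean was at least 3.32 (a normalized count of 10) in either genotype. It is said to have risen or fallen where limma gave a Benjamini-Hochberg adjusted p below 0.05 over all 7490 tested genes in the fit of all 12 samples and also in the fit of the fat bodies alone. The adjusted p printed is that of the 12-sample fit, and errors on differences are standard errors of the same fit. This fit pools fat bodies with the less variable whole larvae (median SD 0.216 against 0.140). Its p-values and errors therefore tend to understate the spread of the fat bodies. With 3 samples against 3, no exact permutation test of a single gene can reach a two-sided p below 0.1.

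The samples separated by genotype, with mutants between 43.3 and 45.6 and controls between −49.0 and −41.8 on a first principal component that held 55% of the fat body variance. The tissue label was checked with markers. The summed level of 10 fat body markers was 19.28 to 19.62 in mutants and 19.11 to 19.95 in controls. In whole larvae it was 16.67 to 17.21. This sum was carried mostly by *apolpp* and *FASN1*. The median of the 10 markers was 9.22 to 10.66 in mutants, 10.33, 10.93 and 14.64 in controls and 11.38 to 11.77 in whole larvae. Only control 7 thus had a median above that of whole larvae. *Tsf1* was lower in fat bodies (2.42 to 7.12) than in whole larvae (11.13 to 11.67). The storage protein gene *Lsp2* was near or below 0 in all samples. Of 9 midgut markers, the sum was 5.87 to 6.47 in mutants and 6.13 to 7.27 in controls, and 15.16 to 15.96 in whole larvae. Of these midgut markers *Npc2f* carried most of the fat body sum (5.69 to 6.16 in mutants and 5.79 to 7.08 in controls). The digestive enzyme gene *Jon65Aiv* was 3.03, 3.35 and 0.17 in mutants and 2.57, 0.43 and 3.53 in controls, against 13.84 to 14.53 in whole larvae. *betaTry* reached 1.71 in mutant 1 and *LysB* 1.70 in control 6. The remaining digestive enzyme genes of the list reached at most 1.07 in any fat body. Control 7 stood apart in the larval serum proteins, with *Lsp1gamma* at 15.26 against 7.60 and 7.77 in controls 5 and 6. The sum of 10 muscle markers was 9.71, 10.22 and 9.85 in mutants and 10.15, 9.72 and 11.49 in controls, highest in control 7. The sum of 10 germ line markers was 9.68, 5.86 and 7.30 in mutants and 5.96, 7.70 and 9.72 in controls, so that mutant 1 and control 7 were the highest of their genotypes. These samples also lay at 1 end of the second principal component, which held 17.9% of the variance (mutant 1 at −36.02, control 7 at −30.09, the others between 4.63 and 28.31). The part of muscle and germ line tissue in the results was not tested.

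The *ERR* transcript itself was 8.40, 8.26 and 8.38 in mutants, against 9.11, 9.24 and 8.29 in controls (difference −0.53 ± 0.20, adjusted p = 0.0707), so that control 7 lay at the level of the mutants. Without control 7 the *ERR* difference was −0.83 and passed the test. In bulk samples, fewer cells of a type and less RNA per cell cannot be told apart, and variants linked to *ERR* on chromosome 3 and the loss of ERR cannot be told apart either.

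Of the 7490 genes, 712 rose (9.51%) and 725 fell (9.68%) in mutant fat bodies, 1437 in all (19.2%). The 12-sample fit alone gave 1131 higher (15.1%) and 1156 lower (15.4%), 2287 in all (30.5%), and the fat bodies alone gave 717 higher (9.57%) and 730 lower (9.75%). The groups did not overlap in 1378 genes with the mutants above (18.4%) and in 1488 with the mutants below (19.9%). The risen genes had a median difference of 1.06, and 386 of them were higher by at least 2-fold. The fallen genes had a median difference of −0.89, and 324 were lower by at least 2-fold. The genotypes did not overlap in 711 of the risen and 725 of the fallen genes. Without control 5, the number that fell was 447. Tested against a 2-fold change (limma treat), 175 genes were higher (2.34%) and 144 lower (1.92%).

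The largest rises were in genes that were low in control fat bodies. *Alp4*, an alkaline phosphatase, was 11.38, 12.42 and 12.56 in mutants, against 2.37, 3.07 and 2.62 in controls (difference 9.43 ± 0.28, adjusted p = 3.44e-09). The UDP-glycosyltransferase gene *Ugt37A3* was 12.56, 14.31 and 12.99 in mutants, against 2.50, 4.58 and 4.92 in controls (difference 9.29 ± 0.62, adjusted p = 8.79e-07). The oxidoreductase gene *fiz* was 12.47, 10.02 and 9.13 in mutants, against 2.99, 1.85 and 2.54 in controls (difference 8.08 ± 0.64, adjusted p = 3.28e-06). In these genes every mutant lay far above every control. The cytochrome P450 gene *Cyp305a1* was 10.04, 8.97 and 10.13 in mutants, against 0.21, 2.77 and 3.46 in controls (difference 7.57 ± 0.65, adjusted p = 6.36e-06). *7B2*, whose product is a chaperone of a prohormone convertase, was 6.13, 6.01 and 5.92 in mutants, against −0.10, −0.10 and −0.07 in controls (difference 6.11 ± 0.23, adjusted p = 1.54e-08). The antisense RNA *asRNA:CR45190* was 10.63, 9.81 and 10.18 in mutants, against 3.45, 3.92 and 2.00 in controls (difference 7.08 ± 0.59, adjusted p = 5.14e-06). *7B2* was at or below 0 in the controls, where an rlog value holds little information on the size of the change. The other 9 of the 15 largest rises were *CG46460* (7.80), *CG7142* (7.70), *CG42329* (7.44), *CG18853* (7.28), *CG14439* (6.44), *CG42673* (6.13), *CG9717* (6.01), *CG34357* (5.93) and *CG1688* (5.86). All 15 were chosen among genes without overlap between genotypes, so their lack of overlap is not a result.

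**Figure D1:**
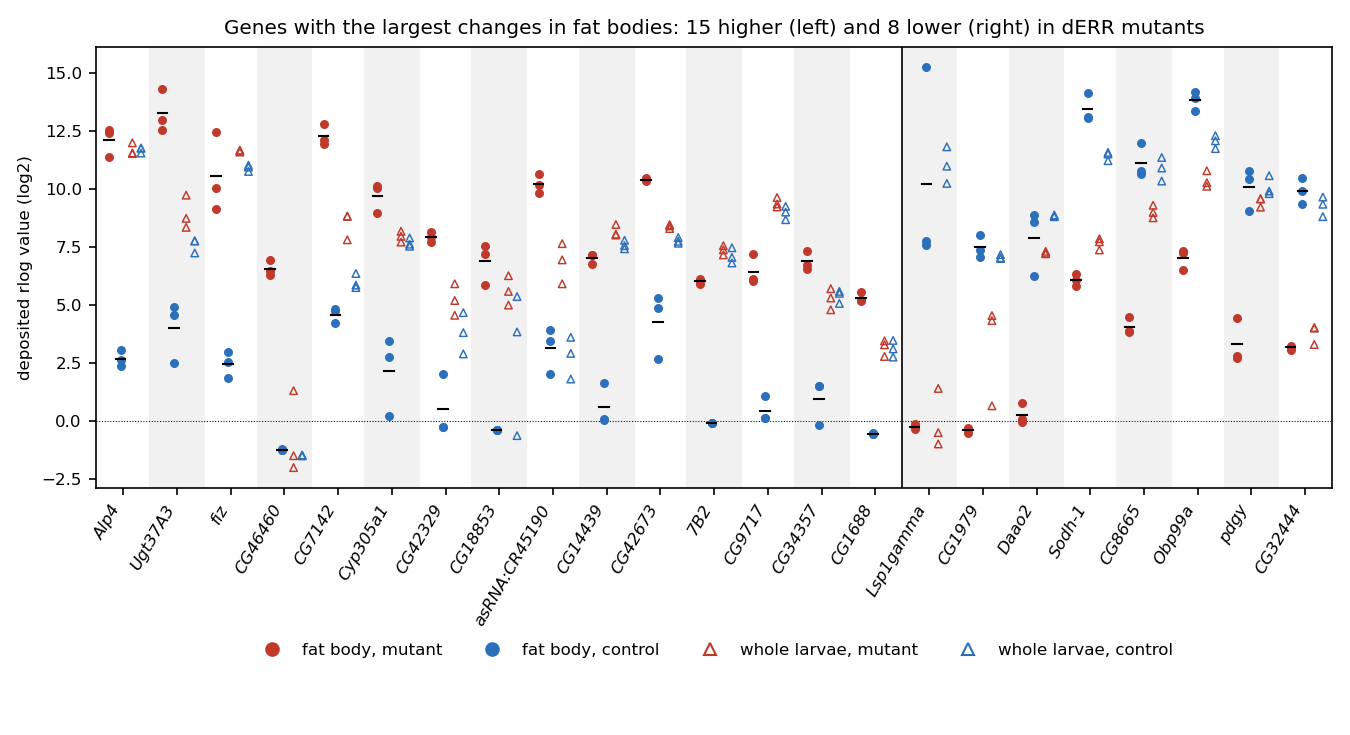
rlog value (log2) of each sample for the genes with the 15 largest rises and the 8 largest falls, with circles for fat bodies (mutants red, controls blue), triangles for whole larvae and bars for fat body means. The genes were chosen so that mutant and control fat bodies lie apart. The control points of *Alp4* lie between 2.37 and 3.07 with the mutants between 11.38 and 12.56.

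Several of these genes overlap others, which can make reads harder to assign, above all on the same strand since the libraries were stranded. *CG46460* overlaps *ImpL2* on the same strand, and *asRNA:CR45190* lies opposite *CG1635*. *fiz* and *pdgy*, which rose and fell, both overlap *Flo2* on the opposite strand. The difference of *Flo2* was −0.54 and did not pass both fits. *pdgy* also overlaps *lncRNA:CR44831* on the same strand, which was not tested. Related genes of 1 family, including the *GstD* genes, *Ugt37A2* with *Ugt37A3*, and *AttA* with *AttB*, may share reads, which would make their single values uncertain. Their sequences were not compared.

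Outside glycolysis and beta-oxidation, the largest falls were in storage protein, polyol and amino acid genes. The larval serum protein gene *Lsp1gamma* was −0.13, −0.24 and −0.37 in mutants, against 7.60, 7.77 and 15.26 in controls (difference −10.46 ± 1.61, adjusted p = 0.000516). *Sodh-1*, sorbitol dehydrogenase, was 6.07, 6.32 and 5.83 in mutants, against 14.12, 13.06 and 13.11 in controls (difference −7.36 ± 0.26, adjusted p = 1.21e-08). *Daao2*, a D-amino acid oxidase, was 0.06, −0.05 and 0.79 in mutants, against 6.26, 8.57 and 8.87 in controls (difference −7.63 ± 0.53, adjusted p = 1.42e-06). Control 7 was far above the other controls in *Lsp1gamma*. The 8 largest falls, too, were chosen among genes without overlap between genotypes. *pdgy*, an acyl-CoA synthetase, was 4.42, 2.69 and 2.78 in mutants, against 10.77, 9.04 and 10.41 in controls (difference −6.78 ± 0.49, adjusted p = 2.04e-06). *Obp99a*, an odorant-binding protein of the haemolymph, was 6.50, 7.25 and 7.32 in mutants, against 14.19, 13.37 and 13.94 in controls (difference −6.81 ± 0.27, adjusted p = 2.56e-08). *CG8665* (−7.06), *CG1979* (−7.88) and *CG32444* (−6.74) were the others of the 8 largest.

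The comparison with whole larvae of the same genotypes asks whether these changes were seen in the entire animal. Of the 7490 genes, 942 had a genotype difference that itself differed between fat body and whole larvae (12.6%, limma interaction contrast), and 135 passed in whole larvae alone (1.8%). Without whole control 1 the number that passed the interaction test was 621. Among the 712 risen genes, 427 passed the interaction test, 31 were also higher in mutant whole larvae and 3 were lower. Among the 725 fallen genes, 381 passed the interaction test, 74 were also lower in whole larvae and 0 passed as higher (11 at an unadjusted p below 0.05). The risen and fallen genes were called by the same fat body difference that enters the interaction contrast. Their larger share past this test is therefore a description and not a separate result. In whole larvae 538 of the risen and 564 of the fallen genes had the same sign as in the fat body, with median differences of 0.14 and −0.16 there, against 0.01 over all genes. *Alp4* differed by 0.00 ± 0.28 in whole larvae, where it lay between 11.53 and 11.99 in mutants and between 11.55 and 11.76 in controls, the level of mutant fat bodies. *CG7142* was higher in both, by 7.70 in the fat body and 2.50 in whole larvae. *Jon74E*, a serine protease gene, went opposite ways, 2.28 in the fat body and −1.46 in whole larvae.

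**Figure D2:**
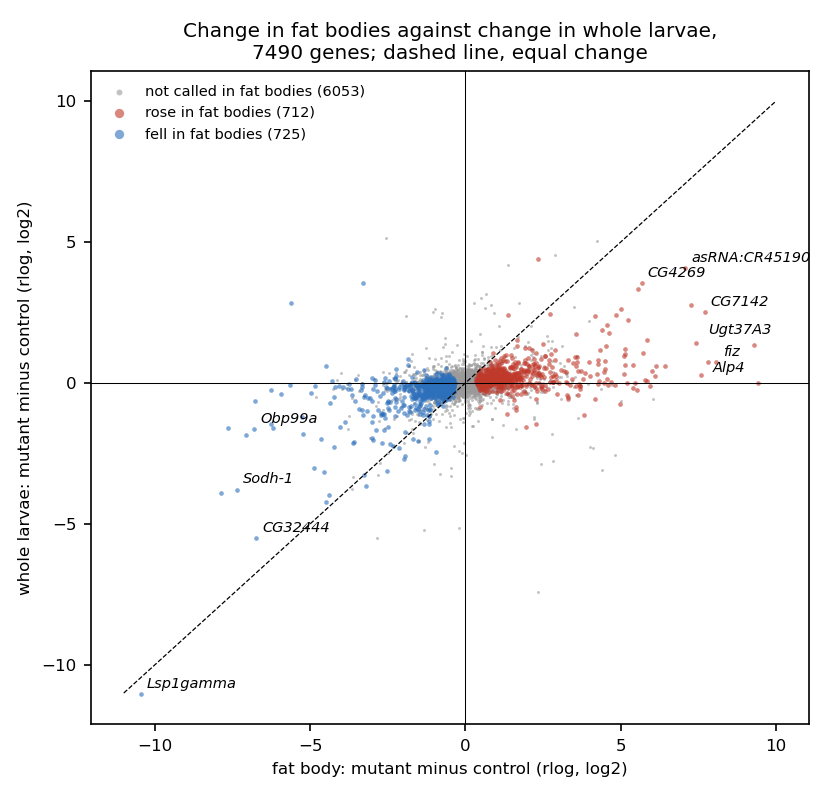
Difference between mutants and controls (log2) of each tested gene in the fat body (horizontal) and in whole larvae (vertical), with each point 1 of 7490 genes, risen genes red, fallen genes blue, and the dashed line equal change. Most risen and fallen genes lie near 0 in whole larvae, where 135 of 7490 genes passed the test, with medians of 0.14 for risen and −0.16 for fallen genes.

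Functions were described with 28 lists of genes, and the share of each that rose or fell is read beside 9.51% and 9.68% of all genes. More members rose than fell in 20 lists, more fell in 7, and 1 had equal numbers. The 12-sample counts are added where they differ by over 1.5 times. For the fits that left out 1 sample, lost calls of the genes described are given, with counts that changed by over 1.5 times. Smaller changes of counts are mostly not given. For example, 8 in place of 11 glutathione transferases rose without control 6 or mutant 2. A count without such an addition is thus not shown to be stable.

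**Figure D3:**
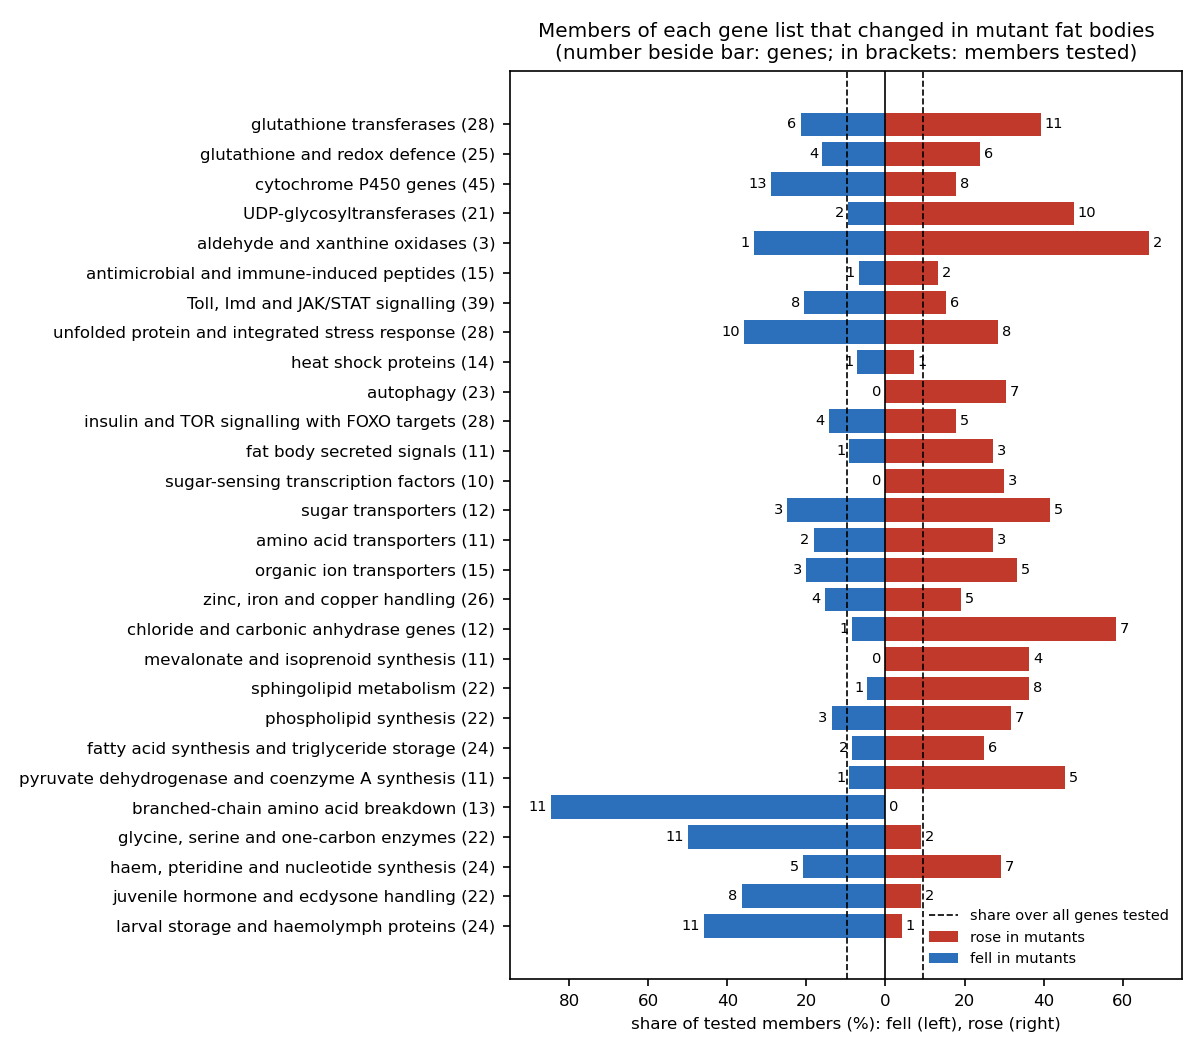
Percent of the tested members of each of the 28 gene lists that rose (right) or fell (left) in mutant fat bodies, with the share over all 7490 genes as dashed lines at 9.51% and 9.68%. The bars of chloride and carbonic anhydrase genes (7 of 12) reach far to the right, and those of branched-chain amino acid breakdown (11 of 13) far to the left.

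Among conjugating enzymes of detoxification more genes rose than fell. Of 21 tested UDP-glycosyltransferases, which attach sugars to lipophilic compounds, 10 rose and 2 fell, with a median difference of 1.14 (all genes −0.02). *Ugt37A2* was 11.31, 12.30 and 10.70 in mutants, against 5.24, 5.77 and 6.79 in controls (difference 5.51 ± 0.45, adjusted p = 4.05e-06). *Ugt35C1* was 11.55, 11.04 and 10.62 in mutants, against 6.77, 6.00 and 7.40 in controls (difference 4.34 ± 0.36, adjusted p = 5.08e-06). *Ugt301D1* and *Ugt35A1* fell by 1.64 and 1.35. Of 28 glutathione transferases, 11 rose and 6 fell, with a median of 0.31. The risen members were of the delta and epsilon classes except for *GstZ1*, and those that fell were *GstT1*, *GstT2*, *GstT3*, *GstO2*, *GstE12* and the delta gene *GstD10*, the largest fall of the list (−1.12). *GstD6* was 10.08, 10.94 and 10.96 in mutants, against 7.62, 7.76 and 7.94 in controls (difference 2.88 ± 0.24, adjusted p = 4.91e-06). *GstE7* was 10.68, 11.41 and 10.71 in mutants, against 9.08, 8.99 and 9.28 in controls (difference 1.81 ± 0.28, adjusted p = 0.000476). Without control 5, 3 glutathione transferases fell. Of 25 genes of glutathione and redox defence 6 rose and 4 fell, with a median of 0.21. Both subunits of glutamate-cysteine ligase, which limits glutathione synthesis, rose: *Gclc* was 10.35, 10.71 and 9.98 in mutants, against 8.55, 8.72 and 8.12 in controls (difference 1.89 ± 0.20, adjusted p = 3.9e-05). *Gclm* was 11.47, 11.33 and 11.28 in mutants, against 9.97, 9.86 and 9.64 in controls (difference 1.54 ± 0.14, adjusted p = 1.28e-05). The next enzyme, glutathione synthetase, rose in both copies (*Gss1* 1.20, *Gss2* 0.60). In the same list *Cat*, catalase, and *Zw*, the first enzyme of the pentose phosphate pathway, fell by 0.83 and 1.18. The aldehyde oxidase genes *AOX1* and *AOX3* rose by 2.27 and 1.53, and *ry*, xanthine dehydrogenase, fell by 0.98. *Ugt301D1* was not called without control 6, mutant 1 or mutant 4, *GstZ1* in any fit that left out 1 sample, *GstT2* without control 5 or mutant 2, *GstT3* without control 5, control 7, mutant 2 or mutant 4, *GstD10* without control 5, mutant 1 or mutant 4, *Gss2* without control 6, control 7, mutant 2 or mutant 4, and *Cat* without control 5, mutant 1, mutant 2 or mutant 4.

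Cytochrome P450 genes moved in both directions: of 45 tested, 8 rose and 13 fell, with a median of 0.02, and the 12-sample fit gave 14 higher and 14 lower. *Cyp9b2* was 11.58, 12.34 and 11.20 in mutants, against 8.76, 8.47 and 9.91 in controls (difference 2.66 ± 0.37, adjusted p = 0.000242). *Cyp6v1* was 4.14, 4.26 and 4.98 in mutants, against 8.86, 8.14 and 8.95 in controls (difference −4.19 ± 0.25, adjusted p = 3.44e-07). *Cyp4p1* rose by 1.76 while its neighbour in the family *Cyp4p2* fell by 1.97. The 4 risen *Cyp9* genes had differences from 0.66 to 2.66, with none of this family among the fallen. *Cyp9b1* was not called without control 5, control 6, mutant 2 or mutant 4. *Cyp9c1* was not called without control 5, control 7, mutant 1, mutant 2 or mutant 4, and *Cyp9f2* without control 6 or mutant 2. The number of cytochrome P450 genes that rose was 5 without control 5 or control 6 and 4 without mutant 2.

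Several regulators of the stress response rose while ER chaperones fell. Of 28 genes of the unfolded protein and integrated stress responses, 8 rose and 10 fell, with a median of −0.06. The risen ones included the kinase sensors *PEK* (1.26) and *Ire1* (0.59), the transcription factor gene *crc*, the fly ATF4 (0.55), and its feedback phosphatase subunit *PPP1R15* (0.81). *Drat*, an alcohol dehydrogenase domain protein gene, was 11.29, 10.81 and 11.04 in mutants, against 6.88, 5.40 and 5.51 in controls (difference 5.12 ± 0.34, adjusted p = 7.92e-07). *Sil1*, the exchange factor of the ER chaperone Hsc70-3, was 9.95, 10.79 and 9.86 in mutants, against 8.39, 8.58 and 8.24 in controls (difference 1.79 ± 0.22, adjusted p = 0.000102). The fallen ones were ER chaperones, folding enzymes, translocon subunits and the quality-control gene *Edem2*. *ERp60* was 13.37, 13.51 and 13.34 in mutants, against 14.49, 14.53 and 14.54 in controls (difference −1.12 ± 0.08, adjusted p = 2.05e-06), and *Hsc70-3*, *Gp93*, *Calr*, *Pdi* and all 3 of the *Sec61* subunits fell by between 0.40 and 0.99. The number that fell was 4 without control 5 and 5 without mutant 4. Among 14 heat shock genes *Hsp22*, a mitochondrial small chaperone, rose (8.72, 10.58 and 9.45 in mutants, against 4.37, 3.44 and 5.58 in controls) and *Hsp83* fell. The risen heat shock genes numbered 2 without control 7 or mutant 1 and 2 in the 12-sample fit, and the fallen ones 0 without control 5, mutant 2 or mutant 4. *Ire1* was not called without control 5, control 6, mutant 1 or mutant 4, *Edem2* without control 5, control 6, control 7, mutant 2 or mutant 4, *Calr* without control 5, and *Hsp83* without control 5, control 6, mutant 2 or mutant 4. Of the *Sec61* subunits, *Sec61beta* was not called without control 5, control 6, mutant 1 or mutant 4, and *Sec61gamma* without control 5, control 6 or mutant 4.

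Of 23 autophagy genes, 7 rose and 0 fell, with 1 lower in the 12-sample limma fit (2 at an unadjusted p below 0.05). Their differences were mostly under 1, as in the kinase gene *Atg1* (0.57) and *Atg8a* (0.65), the ubiquitin-like protein of the autophagosome. The cargo receptor gene *ref(2)P*, the fly p62, was 11.69, 11.60 and 11.24 in mutants, against 9.07, 9.25 and 9.22 in controls (difference 2.33 ± 0.13, adjusted p = 2.15e-07). The number that rose was 2 without control 5, 3 without mutant 2 and 4 without mutant 1, and 1 gene fell without control 5 or mutant 1. The list's median was 0.29. *Atg1* was not called without control 5, control 6, mutant 1 or mutant 2, and *Atg8a* without mutant 2. A list of 33 proteasome subunits, added after the values had been seen, had 12 rises and 0 falls (0 lower at an unadjusted p below 0.05), with differences from 0.16 to 0.93 and a median of 0.36. The proteasome differences were small, none passed the test against a 2-fold change, and the 12-sample fit gave 26 higher. Control 7 was the lowest control in 31 of the 33 genes. The number that rose was 1 without control 5, 6 without control 6, 7 without control 7, 13 without mutant 1 and 0 without mutant 2 or mutant 4.

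Genes of nutrient signalling changed on several levels. *Thor*, the translation inhibitor 4E-BP, was 11.60, 10.58 and 11.02 in mutants, against 8.28, 8.71 and 8.92 in controls (difference 2.43 ± 0.35, adjusted p = 0.000313). *REPTOR* and its partner *REPTOR-BP*, transcription factors held back by TOR, rose by 1.11 and 1.12. *foxo* was 8.95, 8.47 and 8.74 in mutants, against 9.70, 9.64 and 9.71 in controls (difference −0.97 ± 0.13, adjusted p = 0.000167), and *Sesn*, the stress-induced TOR inhibitor sestrin, fell by 1.12. Thus 5 of 28 genes of insulin and TOR signalling rose and 4 fell (3 rises without control 5, control 6, mutant 1 or mutant 4, and 2 falls without control 6, mutant 2 or mutant 4), among them *Pi3K21B* (−0.43). Of 11 secreted signals, *ImpL2*, which binds insulin-like peptides, was 11.35, 11.29 and 10.99 in mutants, against 8.68, 8.71 and 9.43 in controls (difference 2.27 ± 0.19, adjusted p = 5.1e-06). *Ilp6*, the insulin-like peptide of the fat body, was 9.04, 9.01 and 9.44 in mutants, against 7.86, 7.67 and 7.75 in controls (difference 1.41 ± 0.25, adjusted p = 0.00148). *daw*, an activin-like ligand, rose by 1.13 and the growth-blocking peptide gene *Gbp2* fell by 0.93. Of 10 sugar-sensing transcription factor genes, 3 rose and 0 fell (2 lower at an unadjusted p below 0.05 in the 12-sample limma fit). *sug* (sugarbabe), a target of dietary sugar, was 10.27, 10.21 and 10.04 in mutants, against 8.72, 8.79 and 8.29 in controls (difference 1.58 ± 0.25, adjusted p = 0.000618), and *bigmax*, the partner of Mondo, rose by 0.90. Median differences were 0.06, 0.03 and 0.03 in the signalling, secreted and sugar-sensing lists. The secreted signals that fell numbered 2 without mutant 1 and in the 12-sample fit, and 1 sugar-sensing gene fell without control 7. *REPTOR* was not called without control 5, control 6 or mutant 1, *REPTOR-BP* without mutant 4, *Sesn* without control 6, control 7, mutant 1, mutant 2 or mutant 4, *Pi3K21B* without control 5, control 6, mutant 2 or mutant 4, *daw* without mutant 1, mutant 2 or mutant 4, and *bigmax* without mutant 2.

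Membrane transport genes held some of the largest rises. Of 12 genes of chloride transport and carbonic anhydrases, 7 rose and 1 fell, with a median of 1.25, and these counts were the same in every fit that left out 1 sample. The carbonic anhydrase gene *CAH2* was 9.94, 10.72 and 11.20 in mutants, against 5.00, 5.09 and 4.62 in controls (difference 5.71 ± 0.26, adjusted p = 5.25e-08). The bestrophin chloride channel gene *Best1* was 9.39, 8.48 and 7.79 in mutants, against 4.65, 5.00 and 6.34 in controls (difference 3.22 ± 0.43, adjusted p = 0.000168), and the chloride channel gene *ClC-a* rose by 2.34. No mutant overlapped a control in these genes, as in nearly all called genes. The phosphate transporter gene *Picot* was 6.37, 7.75 and 6.98 in mutants, against 1.69, 3.14 and 3.51 in controls (difference 4.25 ± 0.43, adjusted p = 2.35e-05). *NaPi-III*, another phosphate transporter gene, was 13.37, 13.69 and 13.30 in mutants, against 10.19, 10.45 and 8.53 in controls (difference 3.73 ± 0.38, adjusted p = 2.36e-05). The organic cation transporter gene *Orct2* was 11.41, 11.08 and 9.86 in mutants, against 8.07, 6.03 and 6.68 in controls (difference 3.85 ± 0.47, adjusted p = 8.64e-05). With *Orct* and *MFS14* these made 5 rises among 15 organic ion transporters, against 3 falls, with a median of 0.06. The 12-sample fit gave 5 higher and 5 lower. The number that fell was 1 without control 5, control 6, mutant 1 or mutant 4 and 2 without control 7 or mutant 2, while 5 rose in each of these fits. Of 9 markers of the Malpighian tubule, a tissue rich in such transporters, *ZnT35C*, *Oatp58Db* and *Lkr* were below 0 in every fat body. *Best4* was listed at 0 in every sample, whole larvae included. *SLC22A* was 9.04 to 9.82 in mutants, 9.97 to 11.48 in controls and 8.47 to 9.06 in whole larvae. The highest fat body values of *Uro*, *salt*, *Irk3* and *CapaR* were 2.43, 2.43, 1.44 and 1.43, against 5.47 to 11.04 in whole larvae. The part of tubule tissue in the transporter results was not tested.

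Sugar transporters changed both ways, with 5 of 12 risen and 3 fallen (5 higher and 5 lower in the 12-sample fit, median −0.32). *pippin* was 8.90, 8.82 and 9.33 in mutants, against 4.22, 4.38 and 5.09 in controls (difference 4.45 ± 0.22, adjusted p = 1e-07), the trehalose transporter genes *Tret1-1* and *Tret1-2* rose, the second by 1.65, and *Slc45-1* was 5.28, 3.94 and 3.93 in mutants, against 8.61, 9.23 and 8.81 in controls (difference −4.50 ± 0.33, adjusted p = 2.21e-06). Of 11 amino acid transporters, 3 rose, with *JhI-21*, a leucine transporter gene, at 1.79, and 2 fell. Of 26 genes of zinc, iron and copper handling, 5 rose and 4 fell. The zinc importer gene *Zip89B* was 7.04, 3.98 and 6.01 in mutants, against −0.03, 1.02 and 2.68 in controls (difference 4.45 ± 0.74, adjusted p = 0.000839). *Tsf1*, the iron carrier transferrin of the haemolymph, was 4.39, 2.42 and 3.30 in mutants, against 6.50, 7.12 and 6.53 in controls (difference −3.35 ± 0.38, adjusted p = 5.24e-05). The risen number was 3 without control 5 or mutant 4 and 8 in the 12-sample fit. The medians were −0.18 for amino acid transporters and −0.10 for metal handling. *Zip89B* was not called without control 5, mutant 1 or mutant 4.

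In each of the lists of lipid synthesis more genes rose than fell. In the mevalonate pathway, which makes isoprenoids but no sterols in insects, 4 of 11 genes rose and 0 fell, with a median of 0.22 (0 lower at an unadjusted p below 0.05 in either limma fit). *Fpps*, which makes farnesyl pyrophosphate, was 11.22, 10.82 and 11.21 in mutants, against 9.30, 9.21 and 9.48 in controls (difference 1.76 ± 0.14, adjusted p = 2.96e-06). *Mvk* in the same pathway was 0.26, 9.82 and 9.47 in mutants, against 9.72, 8.37 and 9.69 in controls, with mutant 1 apart from every other sample. Of 22 sphingolipid genes, 8 rose and 1 fell, but the 12-sample fit gave 8 higher and 6 lower and the median was −0.08, below that of all genes (−0.02). They ran from the first enzyme, the serine palmitoyltransferase subunit *lace* (0.59), through the ceramide synthase *schlank* (0.52) and the ceramide carrier *cert* (1.28) to the glycosylating enzymes *GlcT* (1.54) and *egh* (1.38). The one that fell, *Gba1b*, which breaks glucosylceramide down, was 7.05, 7.21 and 6.41 in mutants, against 9.41, 9.39 and 9.41 in controls (difference −2.51 ± 0.21, adjusted p = 4.51e-06). Without control 5, 5 sphingolipid genes rose, and without mutant 4, 2 fell. Of 22 phospholipid genes, 7 rose and 3 fell, with a median of 0.35, and 4 rose without mutant 1 or mutant 4. *Taz*, tafazzin, which remodels cardiolipin, was 9.91, 10.04 and 9.74 in mutants, against 8.06, 8.06 and 7.20 in controls (difference 2.12 ± 0.19, adjusted p = 1.02e-05). Of 24 genes of fatty acid synthesis and triglyceride storage, 6 rose and 2 fell, with a median of 0.41 and 10 higher in the 12-sample fit, among them the desaturase *Desat1* (1.04), fatty acid synthase *FASN1* (0.78) and *ATPCL* (0.80), which makes cytosolic acetyl-CoA. *mdy*, the acyltransferase that completes triglyceride, fell. The number of this list that fell was 1 without control 5, mutant 2 or mutant 4. *lace* was not called without control 5, control 7, mutant 2 or mutant 4, and *FASN1* without control 5 or mutant 4.

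Genes of the pyruvate dehydrogenase complex, which turns pyruvate into acetyl-CoA, rose. Its E1 subunits *Pdha* and *Pdhb*, its E2 gene *muc* and the E3 gene *CG7430* had differences between 1.02 and 1.62. *Pdhb* was 14.99, 14.88 and 14.93 in mutants, against 13.42, 13.66 and 12.84 in controls (difference 1.62 ± 0.17, adjusted p = 2.39e-05). *fbl*, pantothenate kinase, which starts coenzyme A synthesis, was 13.38, 13.29 and 13.60 in mutants, against 11.35, 11.59 and 11.23 in controls (difference 2.03 ± 0.12, adjusted p = 2.99e-07). *Mpc1*, a subunit of the carrier that brings pyruvate to the complex, fell by 0.53. Thus 5 of 11 rose and 1 fell, with a median of 0.30. In every fit that left out 1 sample 5 rose, while 0 fell without control 5, control 6, mutant 2 or mutant 4 and 2 fell without control 7, as in the 12-sample fit. *Mpc1* was not called without control 5, control 6, mutant 2 or mutant 4.

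Breakdown of branched-chain amino acids was the list with the largest share of falls: 11 of 13 fell and 0 rose in every alternative, with a median of −1.52 and 0 higher at an unadjusted p below 0.05 in either limma fit. *CG15093*, 3-hydroxyisobutyrate dehydrogenase, averaged 10.51 ± 0.44 in mutants and 13.85 ± 0.22 in controls (SD, n = 3 each; difference −3.34 ± 0.18, adjusted p = 2.27e-07). *CG17896*, methylmalonate-semialdehyde dehydrogenase, was 12.12, 12.04 and 12.01 in mutants, against 14.11, 14.21 and 14.09 in controls (difference −2.08 ± 0.08, adjusted p = 2.26e-08). *Dbct*, the E2 subunit of the branched-chain keto acid dehydrogenase, was 8.97, 8.93 and 9.0 in mutants, against 10.78, 10.80 and 10.69 in controls (difference −1.79 ± 0.07, adjusted p = 3.07e-08). The falls took in the E1 alpha gene of this complex (*CG8199*, −1.52) and both subunits of methylcrotonyl-CoA carboxylase of leucine breakdown (*Mccc1* −1.46, *Mccc2* −1.72). The list includes *CG3902*, an acyl-CoA dehydrogenase that is also in the beta-oxidation list. The members with no call were *CG17691* (−0.05) and the transaminase gene *CG1673* (0.04).

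**Figure D4:**
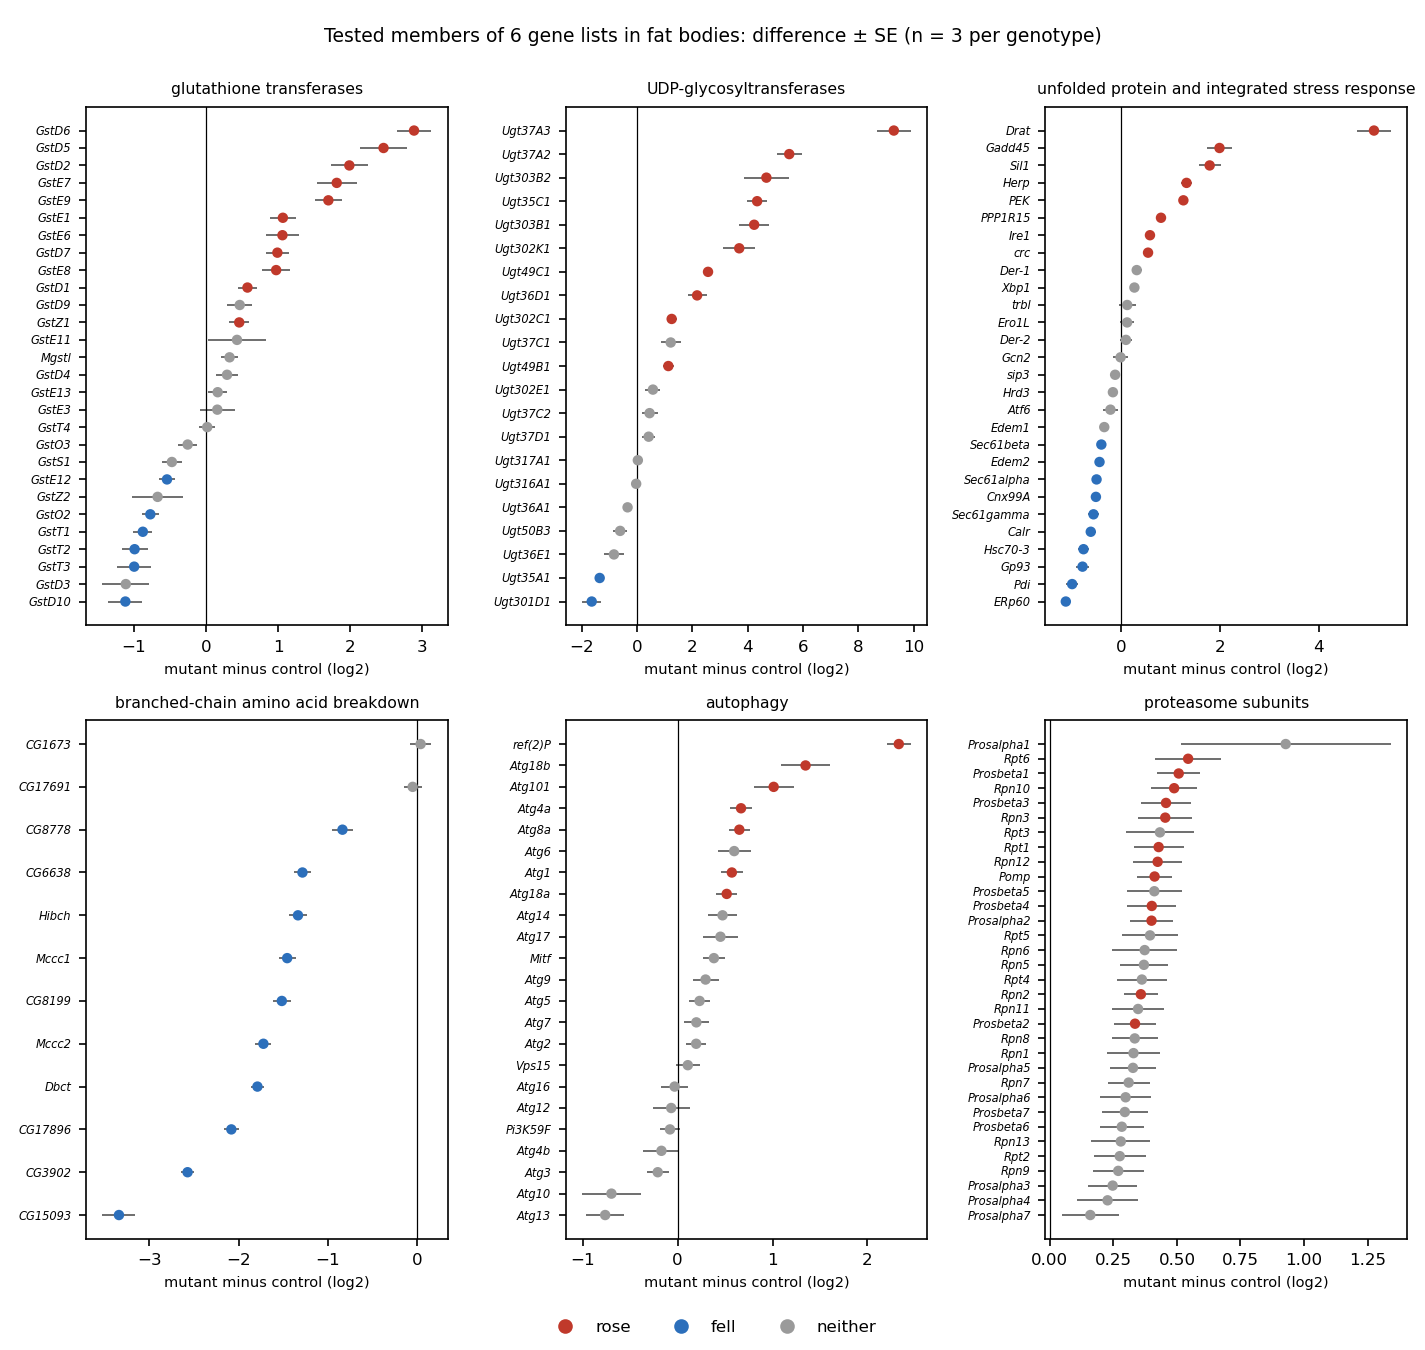
Difference between mutant and control fat bodies (log2) of the tested members of 6 gene lists (n = 3 per genotype). Each point is 1 gene with its standard error from the 12-sample fit, red where it rose, blue where it fell and grey where neither. In branched-chain amino acid breakdown 10 of the 12 points shown are blue, with 1 member left out of the plot, and all 33 proteasome points lie to the right of 0 with 12 of them red.

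Of 22 genes of glycine, serine and one-carbon metabolism, 11 fell and 2 rose, with a median of −0.47. *CG8665*, 10-formyltetrahydrofolate dehydrogenase, was 3.88, 3.84 and 4.48 in mutants, against 10.64, 10.77 and 11.97 in controls (difference −7.06 ± 0.35, adjusted p = 1.14e-07). *Srr*, serine racemase, was 3.10, 1.30 and 0.87 in mutants, against 8.73, 8.71 and 6.58 in controls (difference −6.25 ± 0.62, adjusted p = 1.84e-05). *ppl* of the glycine cleavage system and *Sardh*, sarcosine dehydrogenase, both fell by 1.97. The number that fell was 7 without control 5, control 6, mutant 2 or mutant 4. In haem, pteridine and nucleotide synthesis 7 of 24 rose and 5 fell, with a median of 0.15. The haem genes *Alas* (1.33), *Pbgs* (0.79) and *FeCH* (0.61) rose together. *Pu*, GTP cyclohydrolase, rose by 1.60 while *pr*, the next pteridine enzyme, fell by 1.45. *r-l*, which completes UMP synthesis, rose by 2.20, and *r* and *su(r)*, which start pyrimidine synthesis and breakdown, fell by 0.87 and 1.52. *FeCH* was not called without control 5, control 7, mutant 2 or mutant 4.

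Immune peptide genes differed between the mutant samples. Of 39 immune peptide genes, 15 were high enough to be tested, of which *Drs* and *AttB* rose and *IM33* fell. The median difference of the tested genes was 3.82. Some, such as *Dso1*, passed the filter only through mutants 1 and 4, so this median is not a separate result. *Drs*, drosomycin, was 7.46, 5.44 and 8.04 in mutants, against 1.11, 4.01 and 3.35 in controls (difference 4.16 ± 0.94, adjusted p = 0.00598). *Dso1* was 9.25, −0.38 and 9.64 in mutants, against 0.90, −0.25 and −0.23 in controls, and *BomS1*, a bomanin, was 8.24, 1.92 and 8.78 in mutants, against 3.53, 2.08 and 2.47 in controls. Mutants 1 and 4 were high and mutant 2 was at the control level in *Dso1*, *Dso2*, *BomS1*, *BomS2*, *BomS3* and *BomS5*, and none of these passed the test. Without mutant 2, 7 immune peptide genes rose, without mutant 4, 0 did, and without control 5, control 6 or mutant 1, 1 did. The 12-sample fit gave 4 higher and 1 lower. Of 39 genes of Toll, Imd and JAK/STAT signalling, 6 rose and 8 fell, with a median of −0.09, and the 12-sample fit gave 11 higher and 14 lower. *Socs36E*, a feedback inhibitor of JAK/STAT signalling, was 7.96, 7.99 and 7.81 in mutants, against 4.66, 3.50 and 5.82 in controls (difference 3.26 ± 0.43, adjusted p = 0.000156). *PGRP-LC*, the receptor of the Imd pathway, rose by 1.45, whereas *PGRP-SB1* and *PGRP-LB*, amidases that digest peptidoglycan, fell by 2.15 and 1.21. Among haemocyte markers, *Hml* was 6.58, 6.83 and 7.65 in mutants, against 7.77, 7.01 and 8.02 in controls, and the crystal cell gene *PPO1* was 4.43, 7.34 and 7.20 in mutants, against 4.59, 4.80 and 6.09 in controls, highest in mutants 2 and 4. Their part in the immune results was not tested. *Drs* was not called without mutant 4, *AttB* without control 5, control 6, mutant 1, mutant 2 or mutant 4, and *PGRP-LB* without control 5, control 6, mutant 2 or mutant 4.

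Hormone and storage genes fell more often than they rose. Of 22 genes of juvenile hormone and ecdysone handling, 8 fell and 2 rose, with a median of −0.06 and 4 higher in the 12-sample fit. *Jheh1*, *Jheh2* and *Jheh3*, neighbouring epoxide hydrolase genes that degrade juvenile hormone, fell by 2.34, 1.92 and 4.29. *Jheh3* was 6.25, 6.21 and 6.90 in mutants, against 10.55, 10.92 and 10.76 in controls (difference −4.29 ± 0.19, adjusted p = 5.01e-08). Of ecdysone-induced genes, *Hr4* was 2.60, 2.74 and 4.06 in mutants, against 6.32, 5.72 and 5.99 in controls (difference −2.88 ± 0.35, adjusted p = 8.72e-05), and *br* and *Eip74EF* fell by 2.50 and 2.24. *shd*, which converts ecdysone to its active form, rose by 1.44. Of 24 storage and haemolymph protein genes, 11 fell and *Idgf1* rose, with a median of −0.68, and 3 rose without mutant 1. *Adh*, alcohol dehydrogenase, was 13.86, 11.39 and 12.91 in mutants, against 17.75, 18.15 and 17.15 in controls (difference −4.96 ± 0.47, adjusted p = 1.45e-05). *smp-30* was 9.46, 9.24 and 8.93 in mutants, against 13.93, 13.47 and 12.96 in controls (difference −4.25 ± 0.23, adjusted p = 2.11e-07). *Lsp1beta* was 9.40, 9.51 and 11.88 in mutants, against 12.81, 14.10 and 17.82 in controls (difference −4.64 ± 1.07, adjusted p = 0.00684). Of 10 markers of epidermis and trachea the sum was 6.10, 7.58 and 8.59 in mutants and 10.79, 11.09 and 13.08 in controls. Nearly all of the control sum was the single gene *Cpr49Ac*, at 5.53, 5.31 and 8.24 in mutants, against 10.68, 11.02 and 13.05 in controls. The genotypes overlapped in *serp* (3.06, 4.97 and 4.02 in mutants, against 5.25, 4.71 and 5.16 in controls). They also overlapped in *Lcp4* (2.59, 2.66 and 3.84 in mutants, against 2.23, 3.32 and 4.55 in controls). *verm* was 1.30, 6.71 and 5.25 in mutants, against 6.25, 5.68 and 5.16 in controls, and *Gasp* was 1.17, 2.61 and 3.54 in mutants, against 3.46, 3.94 and 6.51 in controls, while *Lcp1*, *Lcp2* and *Lcp3* were near or below 0 in every fat body. In *Lsp1beta*, *Lsp1gamma* and *Cpr49Ac* control 7 was the highest sample. *br* was not called without control 7, mutant 1 or mutant 2, and *Lsp1beta* without control 6, mutant 1 or mutant 2. The part of developmental timing and of epidermal tissue in these falls was not tested.

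Neighbouring genes made up 25 runs of adjacent genes that passed the 2-fold test in the same direction. They included *Ugt37A2* with *Ugt37A3*, *Ugt303B1* with *Ugt303B2*, *GstD5* with *GstD6*, *AOX1* with *AOX3*, *CG1638* with *CG1774*, and *CAH2* with *CG9760* and *Rh7* among the rises, and *Sodh-1* with *CG1979* and *lncRNA:CR43411* with *Adh* among the falls. These runs rest on the 12-sample fit, and *Ugt303B1* and *Ugt303B2* lost the call of both fits in 5 of 6 fits that left out 1 sample. The chromosome arm of *ERR*, 3L, held 19.0% of the tested genes and 17.7% of those that rose. The arm 3R held 24.3% of the tested genes, 25.3% of those that rose and 30.9% of those higher by the 2-fold test.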

How the data were processed

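RNA of *dERR* mutant and control fat bodies and whole larvae was sequenced by the authors as stranded, paired-end, poly-A selected libraries. The authors quantified transcripts with Salmon 1.10.2, which allows for sequence, GC and position bias, summed them per gene and deposited log2 values from the rlog transform of DESeq2 1.42.0, fitted with genotype, tissue and their interaction. The deposited table held 24134 genes in 12 samples, and 0 columns of other samples. Raw counts and depth are unknown, so no count test or counting interval was possible, and rlog shrinkage pulls low values together. The study's methods and the labels give different ages and extraction kits for the larvae, and the labels are followed here.

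Genes with a mean of at least 3.32 in either fat body group were fitted with limma 3.58.1 (R 4.3.3, variance trend) over all 12 samples, with 1 mean per group, 7490 genes and Benjamini-Hochberg adjustment. Treat was run against a log2 difference of 1, and the interaction contrast compared tissues. On simulated data of this design with 7490 genes and 200 changed, the 12-sample fit recovered 184 with 67 false calls (26.69% of its calls). Since fat bodies varied more than whole larvae (median SD 0.216 against 0.140), a gene was then said to rise or fall only where the fit of the fat bodies alone also passed, which recovered 171 with 12 false calls (6.557%). This rule was added after the simulation. Named genes were the 15 largest rises and 8 largest falls past treat with no overlap between genotypes, glycolysis and beta-oxidation left out of the falls, up to 4 members past the test in each direction of each list, *ERR*, and members with no call where a list needed them. Other genes named beside their list were chosen after their values were seen. Members and lists were chosen with earlier results of these data known. Alternatives were the fat bodies alone, other filters, no variance trend, array weights, centring, quantile normalization, a threshold of 0.005, and leaving out each sample. Some list members enter the counts but are not reported here by name. Promoter sequences were not analysed here. Chromosome arms and gene overlaps came from the Ensembl reference annotation. Figures were drawn with matplotlib 3.10.9.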

Additional observations from a re-analysis of the deposited data

Results flagged for a closer look

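The change in the fat body differed from the change in whole larvae (limma interaction, adjusted p below 0.05) for 942 of all 7490 genes (12.6%) and for 131 of 179 named genes, among them 14 of the 15 largest rises and 6 of the 8 largest falls. The named genes were chosen by the same fat body values that enter this contrast, so their larger share is a description and not a separate result. The values given here are the fat body difference minus the whole larva difference on the log2 scale. Enzyme genes with a larger rise in the fat body were *Alp4* (9.43), *Ugt37A3* (7.94), *fiz* (7.35) and *Cyp305a1* (7.30). The others were *CG46460* (7.05), *CG34357* (6.05), *CG42329* (6.00), *7B2* (5.86), *CG14439* (5.85), *CG1688* (5.79), *CG9717* (5.59), *CG42673* (5.51), *CG7142* (5.20) and *asRNA:CR45190* (3.02). Larger falls in the fat body were those of *pdgy* (−6.14), *Daao2* (−6.05), *CG8665* (−5.21), *Obp99a* (−5.16), *CG1979* (−3.98) and *Sodh-1* (−3.57). Genes that rose in the fat body and were lower in whole mutant larvae were *Jon74E* (3.74), *qless* (2.44) and *PyK* (1.34). The rise of *PyK* (0.48) was not called without control 5, mutant 1, mutant 2 or mutant 4.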

How the results depend on the processing

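No named gene changed direction in the 14 alternatives run on the 12-sample fit. This was largely fixed in advance, since all but *ERR* were chosen by their call and the genotypes hardly ever overlap in called genes. With the fat bodies alone, 717 genes were higher and 730 lower, against 1131 and 1156 in the 12-sample fit, and 113 against 175 were higher by treat. At an adjusted p below 0.005, 609 genes were higher and 569 lower in the 12-sample fit, 110 were higher by treat, 282 rose, 284 fell and 318 passed the interaction test, by construction of the stricter threshold. Leaving out 1 sample gave 478 to 708 risen genes, 447 to 757 fallen genes and 621 to 1182 genes of the interaction test, the fewest fallen without control 5 and the fewest of the interaction without whole control 1. The cause of these 2 minima was not tested. Of the 178 named genes that rose or fell, 121 kept the call of both fits in all 13 alternatives in which they could be tested, 136 in all but the threshold of 0.005, and 144 in all 6 fits that left out 1 fat body sample. Each of these 6 fits lost 11 (without control 7) to 23 (without mutant 4) of the calls, with no filter 38 were lost and with no variance trend 17. Judged by the 12-sample fit only, 162 of 179 named genes stayed on their side of the threshold in all 14 alternatives, and *ERR* passed it with array weights (−0.72) and without control 7 (−0.83). Median differences stayed near 0 under centring (−0.03) and quantile normalization (−0.02). No paired analysis was possible because the fat body mutants and controls share no replicate numbers. With the replicate block for the whole larvae alone, 658 genes passed the interaction test. Depth is unknown, and genes near 0 in 1 genotype have uncertain differences.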

Other observations

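Lists put together after the values had been seen described protein turnover and the organelle machinery of mutant fat bodies. Of 19 genes of the ESCRT machinery, which sorts membrane cargo for the lysosome, 9 rose and 0 fell, with a median difference of 0.44. The number that rose was 4 without control 5, mutant 2 or mutant 4, and the 12-sample fit gave 13 higher. Of 17 subunits of the vacuolar proton pump, which acidifies lysosomes, 5 rose and 0 fell, with a median of 0.34. The number that rose was 2 without control 5, control 6, mutant 2 or mutant 4 and 3 without mutant 1, and the 12-sample fit gave 9 higher. At an unadjusted p below 0.05, 0 genes of either list were lower in either limma fit, and none passed the test against a 2-fold change. In whole larvae the medians were 0.07 and 0.15.

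No ribosomal or respiratory gene was called by both limma fits. Of 87 cytosolic ribosomal protein genes, the 12-sample fit gave 0 higher and 2 lower (3 lower at an unadjusted p below 0.05), with a median of −0.02. Of 73 mitochondrial ribosomal protein genes it gave 1 higher and 2 lower (3 and 4 at an unadjusted p below 0.05), with a median of 0.01. Of 64 genes of the respiratory complexes it gave 0 higher and 1 lower (6 and 2 at an unadjusted p below 0.05), with a median of 0.07. In the fat bodies alone the unadjusted counts higher and lower were 0 and 2, 1 and 2, and 1 and 2. Control 7 was the lowest control in 82, 71 and 62 of these genes, and without control 7 both fits called 1, 7 and 1 of them as fallen.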
